A study of Mus musculus with 4 samples.

Results

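Cluster 12 is a chromatin state of PB3, a cell line from a mouse mammary tumor, and was found almost entirely in cells treated with eribulin. Its members are the 1499 cells, of 43782 in all, to which the authors gave cluster number 12 when they grouped the cells of all libraries by their accessible peaks. Of these members, 930 came from eribulin-treated cells profiled by single-cell ATAC-seq (scATAC, run 1) and 547 from eribulin-treated nuclei profiled for accessibility in a single-nucleus multiome assay (run 3). The other 22 were untreated, 16 in scATAC and 6 in the multiome assay. Eribulin cells had received 500 nM eribulin for 72 h with 48 h of recovery, in 4 rounds. The untreated cells had no drug, and all cells grew in the same DMEM/F12 medium. The eribulin libraries held 16724 scATAC and 8114 multiome cells, and the untreated libraries held 9361 and 9583. Each group was 1 library of 1 cell line, so no spread between replicates could be measured and no test between groups was made. Intervals in parentheses after a share are exact 95% binomial (Clopper-Pearson) intervals, which cover counting error only.

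Eribulin binds the growing ends of microtubules and stops dividing cells in mitosis. In ATAC-seq the Tn5 transposase inserts into open DNA, so that the pattern of its cut sites records which regulatory regions of a cell are accessible. Cells of the same line can hold different accessible states, and such states can be passed on when a cell divides. The cells also carried lentiviral barcodes, short DNA tags that integrate into the genome and pass to all descendants of the infected cell, so that cells with the same barcode belong to the same lineage. Accessibility of single genes was not analysed here. The cluster therefore keeps its number, and the tissue label was not checked against marker genes.

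The barcodes of the 5 lineages with most cells in cluster 12 are shown because the lineage results rest on telling them apart. Each is named by the numbers of its short and its long part, and is written with the short part of 14 bases and the linker of 4 bases in lower case and the long part of 30 bases in capitals:
6-93034: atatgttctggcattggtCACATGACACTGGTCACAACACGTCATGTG
76-49517: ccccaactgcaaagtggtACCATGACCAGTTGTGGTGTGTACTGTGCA
95-33662: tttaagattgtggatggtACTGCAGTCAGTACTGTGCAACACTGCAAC
55-23349: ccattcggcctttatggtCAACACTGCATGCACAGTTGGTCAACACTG
39-41529: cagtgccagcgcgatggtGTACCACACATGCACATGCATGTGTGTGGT
The barcode of lineage 6-93034 differed from that of every other lineage found in cluster 12 or named here at 26 or more of its 48 positions. Over all 78 pairs of these 13 barcodes the smallest number of differing positions was 16.

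Cluster 12 belonged to the eribulin libraries in both protocols. Its share in scATAC was 5.56% (5.22 to 5.92) with eribulin and 0.171% (0.0977 to 0.277) without, a difference of 5.39 percentage points. In the multiome assay its share was 6.74% (6.21 to 7.31) with eribulin and 0.0626% (0.0230 to 0.136) without, a difference of 6.68 points. Eribulin cells thus made up 98.5% (97.8 to 99.1) of its members, whereas they made up 56.7% of all cells. With at least 5000 cut sites per cell, the difference was 2.45 points in scATAC, from an eribulin share of 2.56%, and 8.96 points in the multiome assay, from an eribulin share of 9.02%. Over all cells, the eribulin shares in scATAC and in the multiome assay were 9.17% and 3.41% for cluster 10, 8.11% and 4.56% for cluster 11, and 6.32% and 1.06% for cluster 13. By number of cells, cluster 12 ranked at place 7 of 17 in the eribulin scATAC library and at place 2 of 17 in the eribulin multiome library, where only cluster 0 was larger.

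On the deposited UMAP, a map without units that places cells of like accessibility near each other, most members formed a compact island beside the other eribulin cells. Within 2 map units of the cluster's median position lay 93.3% of the eribulin scATAC members and 85.7% of the eribulin multiome members. Among the 30 nearest cells of an eribulin scATAC member 83.0% also belonged to cluster 12, and cluster 10 came next with 5.09%. For an eribulin multiome member the own-cluster share was 69.3%, and cluster 0 came next with 14.4%. The map was made from the same peaks as the clusters, so these shares describe the cluster and give no independent evidence for it.

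**Figure D1:**
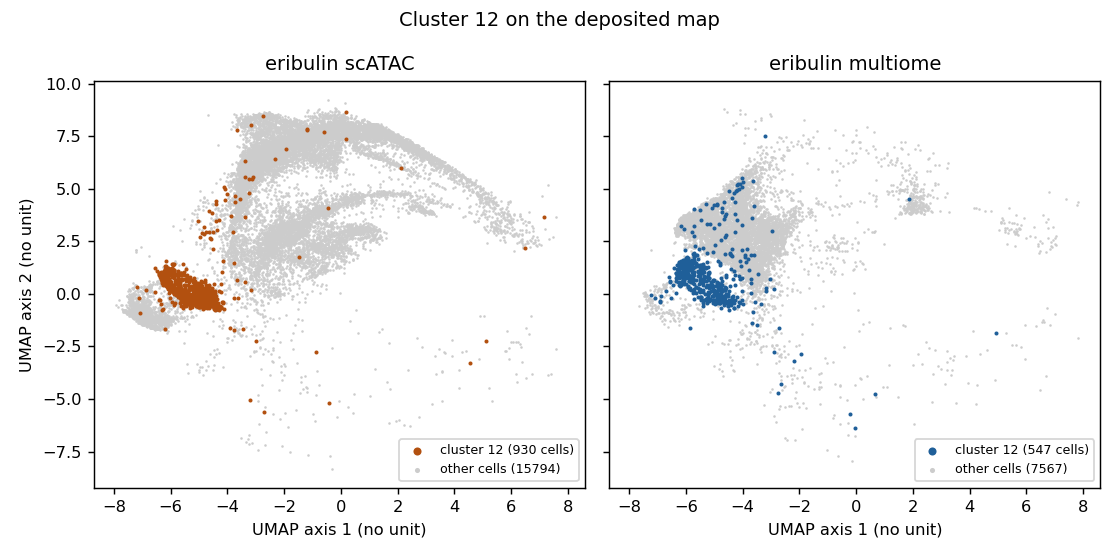
Eribulin scATAC (left) and eribulin multiome cells (right) on the deposited UMAP, whose axes have no unit, with each point a cell, members of cluster 12 coloured and all other cells of the same library grey. The 930 scATAC and 547 multiome members overlap on an island at the left, and scattered members reach into the areas of other eribulin cells.

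The island held members of both protocols, but not fully mixed. With both libraries thinned to 547 members, 64.4% of a member's 30 nearest members came from its own protocol, where complete mixing gives 50.0%. The median position of the scATAC members was -5.25 and 0.0075 on the 2 axes, and that of the multiome members was -5.43 and 0.852. The members of both libraries thus had like medians on the horizontal axis and differed on the vertical axis. Members outside the island were those with fewer than 50% of their neighbours in cluster 12, which applied to 90 scATAC and 130 multiome members. The outside members were deeper than the island in scATAC, at 5052.5 against 3071.5 cut sites in the median. In the multiome library they were shallower, with 4315.5 against 6507 cut sites.

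The number of cut sites in peaks per cell, a measure of depth, separated cluster 12 from the other cells of its library in opposite directions in the 2 protocols. In eribulin scATAC the members had a median of 3176.5 cut sites (quartiles 2114.75 and 5317.75) and the other cells 6239.5 (3811 and 10085.5), a change of -49.1%. This was the lowest median of the 9 clusters with at least 50 cells in that library, and 80.6% (78.0 to 83.1) of the members lay below the median of the other cells. In eribulin multiome the members had a median of 5868 cut sites (3191 and 11454) and the other cells 4143 (2343 and 7265), a change of 41.6%. This was the highest median of the 6 clusters of that size there, and 34.9% (30.9 to 39.1) of the members lay below the median of the other cells. Cluster 12 therefore held 3.37% of the cut sites of the scATAC library and 9.80% of those of the multiome library.

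The share of cells assigned to cluster 12 varied with depth in both libraries. When the eribulin scATAC cells were divided into deciles of cut sites, cluster 12 held 16.7% (14.9 to 18.6) of the shallowest decile, with 1005 to 2317 cut sites. It held 4.96% (3.97 to 6.11) of decile 4 and 2.09% (1.46 to 2.90) of the deepest, with 14893 to 63586 cut sites. In the eribulin multiome library it held 3.08% (2.00 to 4.51) of the shallowest decile, with 1002 to 1543 cut sites, and 5.17% (3.75 to 6.93) of decile 4. It held 13.9% (11.6 to 16.5) of the deepest decile, with 12889 to 82683 cut sites. In the range of cut sites shared with the untreated library the eribulin scATAC share was 3.62%. By decile the protocols crossed near decile 4, and the intervals of their shallowest deciles, as of their deepest, did not overlap. Deciles were cut within each library, so this crossing is not at a common depth. Decile 4 spanned 4088 to 5012 cut sites in scATAC and 2695 to 3393 in the multiome library. The part that depth has in the assignment of cells to cluster 12 was not tested.

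**Figure D2:**
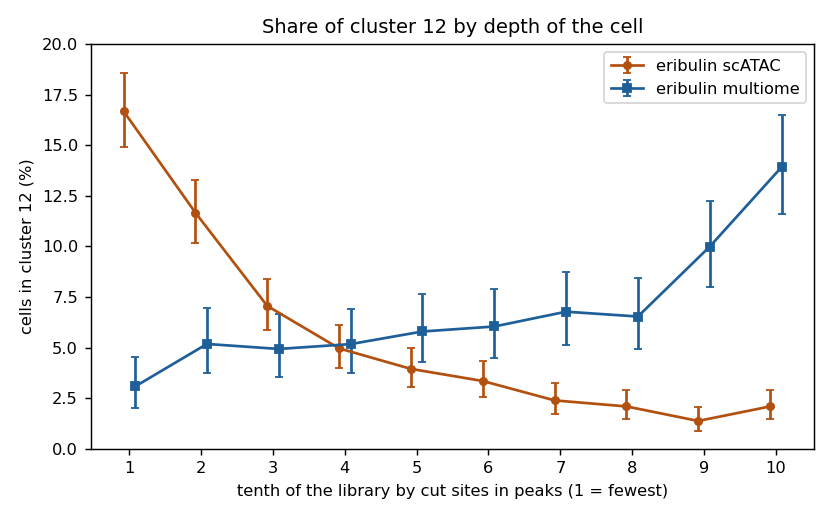
Share of cells in cluster 12 (percent, y axis) in each decile of cut sites in peaks (x axis, 1 is the shallowest) for eribulin scATAC (circles) and eribulin multiome (squares), with exact 95% binomial intervals. Deciles were cut within each library and so differ in cut sites between the protocols. The scATAC share lies at 16.7% in the shallowest decile and 2.09% in the deepest, and the multiome share at 3.08% and 13.9%.

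Other measures of the chromatin profile differed less. The nucleosome signal compares fragments that span a nucleosome with short fragments free of nucleosomes. It had a median of 0.725 (quartiles 0.666 and 0.791) in scATAC members and 0.757 (0.693 and 0.825) in the other eribulin scATAC cells. With the other cells weighted to the depth of the members, their median was 0.760, so the gap of -0.0320 became -0.0347. In the multiome library the medians were 0.676 in members and 0.668 in the other cells, a gap of 0.00795 that lies well inside the quartiles of 0.606 and 0.747 of the members. The enrichment of cuts around transcription start sites had a median of 5.13 in members and 5.04 in other cells in scATAC, and of 5.04 and 5.07 in the multiome library. Both gaps were small beside the quartiles of the members, which were 4.57 and 5.73 in scATAC and 4.63 and 5.54 in the multiome library.

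The accessibility counted over genes showed a clearer gap in scATAC. The gene activity total of a cell, which sums accessibility over genes, came to 0.973 (quartiles 0.934 and 1.03) per cut site in scATAC members and to 0.919 (0.890 and 0.961) in the other cells. Only 16.5% (14.1 to 19.0) of the members lay below the median of the others. Weighting the other cells to the depth of the members raised their median to 0.939, which left a gap of 0.0340. Among the clusters most like it, cluster 10 had a median of 0.963, cluster 11 of 0.956 and cluster 13 of 0.931 in the same library. In the multiome library the medians were 0.961 in members and 0.971 in the other cells, and 56.5% (52.2 to 60.7) of the members lay below the median of the others. The numbers of peaks and of genes with activity followed depth. Members had a median of 2980 peaks against 5640.5 in other scATAC cells and of 5341 against 3861 in other multiome cells, and at the depth of the members the other cells had 3003 and 5317.

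The 22 untreated members had higher nucleosome signals than most eribulin members, and their medians were near those of their own libraries. In scATAC the nucleosome signal had a median of 0.725 in the eribulin members. In the 16 untreated members its lowest value was 0.775, its median 1.03 and its highest value 1.47, and in the untreated cells outside the cluster its median was 1.07. All 16 untreated members lay above the median of the eribulin members and 15 above their upper quartile. In the multiome assay the median was 0.676 in the eribulin members. The 6 untreated members had values of 0.741, 0.861, 0.955, 0.960, 1.07 and 1.26, with a median of 0.958, and the untreated cells outside the cluster had a median of 0.907. All 6 lay above the median of the eribulin members and 5 above their upper quartile. The single values spread widely, with 6 of the 16 scATAC and 3 of the 6 multiome cells inside the quartiles of the untreated cells outside the cluster. Treatment and library cannot be told apart here, since each group was 1 library.

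The untreated members were also less firmly placed. On the map 90.3% of the eribulin members in scATAC and 76.2% of those in the multiome assay had at least 50% of their neighbours in cluster 12. Among untreated members this applied to 9 of 16 in scATAC and 2 of 6 in the multiome assay. The untreated scATAC members ranged from 1359 to 23399 cut sites and the untreated multiome members from 2443 to 12368. Eribulin and untreated libraries of the same protocol shared some cell barcodes, the tags that mark a droplet. They shared 215 in scATAC, with 9361 untreated cells, and 123 in the multiome assay, with 9583 untreated cells. The number that chance would give was not computed. Among the untreated members 1 of 16 in scATAC and 1 of 6 in the multiome assay had such a shared cell barcode. In neither case did the eribulin cell of the same barcode lie in cluster 12. Libraries of different protocols shared no cell barcodes that belong to cluster 12. Over all cells, each pair of such libraries shared 0 or 1, so this does not set the members apart.

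**Figure D3:**
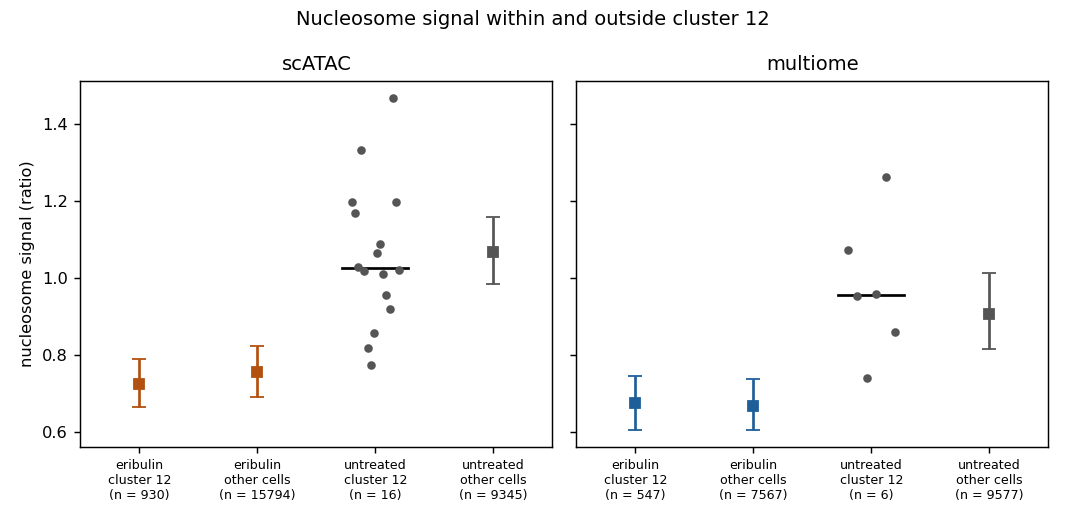
Nucleosome signal (ratio, y axis) in scATAC (left) and multiome (right) cells, with squares at the median and bars from the lower to the upper quartile, and with single points and a line at the median for the few untreated members of cluster 12. The eribulin members have medians of 0.725 in scATAC and 0.676 in the multiome assay, below those of the 16 and 6 untreated members, 1.03 and 0.958.

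Lineage barcodes, which were not used to form the clusters, were called more often in cluster 12 than in the rest of the eribulin multiome library. A single barcode was called in 239 of its 547 members, or 43.7% (39.5 to 48.0), against 15.2% (14.4 to 16.1) of the other cells. At the depth of the whole library these shares were 40.9% and 15.4%. The share was 30.0% (24.6 to 35.7) in cluster 10, 17.8% (14.1 to 22.1) in cluster 11 and 24.4% (15.8 to 34.9) in cluster 13. The higher share in cluster 12 lay in cells of lineage 6-93034. A single barcode of any other lineage was called in 39 of the 547 members and in 949 of the 7567 other multiome cells. In eribulin scATAC only 5 of 930 members (0.538%, 0.175 to 1.25) and 79 of the 15794 other cells (0.396% to 0.623% by the same interval) had a single called barcode.

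Lineage 6-93034 made up most of the single-barcode members of cluster 12 in the multiome assay. A further 287 of the 547 members had no call, and whether all lineages were called equally often was not tested. Lineage 6-93034 was called in 200 of the 239 single-barcode members, or 83.7% (78.4 to 88.1). Outside the cluster it was called in 203 of the 1152 single-barcode cells, or 17.6% (15.5 to 19.9). The ratio of these shares was 4.75. Counted over all cells, with or without a call, 36.6% of the members and 2.68% of the other multiome cells carried it. No other eribulin cluster with at least 20 single-barcode cells was led by 6-93034. Cluster 10 was led by 95-33662, with 69.9% (58.8 to 79.5) of its 83 single-barcode cells, and cluster 11 by 39-41529, with 51.5% (38.9 to 64.0) of its 66. Clusters 0, 13 and 15 were led by 76-49517, and 6-93034 held 19.7%, 9.52% and 22.2% of their single-barcode cells.

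Lineage 6-93034 was divided almost evenly between clusters 12 and 0. Of its 403 multiome cells 200 lay in cluster 12, or 49.6% (44.6 to 54.6), and 173 in cluster 0, or 42.9% (38.0 to 47.9). The remaining 30 were spread over clusters 15 with 14 cells, 11 with 6, 10 with 4, 6 with 3, 13 with 2 and 8 with 1. Its cells in cluster 12 and in cluster 0 had like medians on the available measures per cell. These measures do not show which regions were accessible. The median was 6032 cut sites in cluster 12 and 5575 in cluster 0, the nucleosome signal 0.676 and 0.668, and the gene activity per cut site 0.955 and 0.958. The cells of this lineage in cluster 0 were mixed with those of other lineages on the map. Among their 30 nearest single-barcode cells 22.8% were of 6-93034, against 19.8% around cluster 0 cells of other lineages and 78.2% around its own cells in cluster 12.

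The concentration of 6-93034 in cluster 12 was present at every depth. Among the shallowest 464 single-barcode multiome cells, with 1008 to 3998 cut sites, 57 of 134 cells of the lineage (42.5%, 34.0 to 51.4) and 4 of 330 cells of other lineages (1.21%, 0.331 to 3.07) lay in cluster 12. Among the middle 463, with 4015 to 8984 cut sites, the shares were 51.1% (42.5 to 59.6) and 2.78% (1.28 to 5.21). Among the deepest 464, with 8998 to 82683 cut sites, they were 55.4% (46.4 to 64.1) and 7.78% (5.15 to 11.2). At each depth the lineage's interval lay far above that of the other lineages.

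The other named lineages had few of their cells in cluster 12. Lineage 76-49517, the most frequent of the eribulin multiome library, had 9 of 438 cells there (2.05%, 0.944 to 3.86), although it made up 37.2% of the single-barcode cells outside and 3.77% of those inside. Lineage 95-33662 had 7 of 176 (3.98%, 1.61 to 8.02), 55-23349 had 8 of 146 (5.48%, 2.40 to 10.5) and 39-41529 had 7 of 81 (8.64%, 3.55 to 17.0). Lineage 55-98358 had 3 of 46 cells (6.52%, 1.37 to 17.9), and 89-6288, 29-49561 and 55-99383 had 1 cell each. Lineage 55-37135 had 0 of 11, which allows a share of up to 27.3%. The remaining lineages found in the cluster were 75-79440, with 1 of its 3 eribulin multiome cells, and 29-67687, with its only eribulin multiome cell. Both are too small in that library for a share. Over all lineages other than 6-93034 the share was 3.95% (2.82 to 5.36). The intervals of the named ones overlapped, which does not show that their shares were alike. The order among them was not tested.

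**Figure D4:**
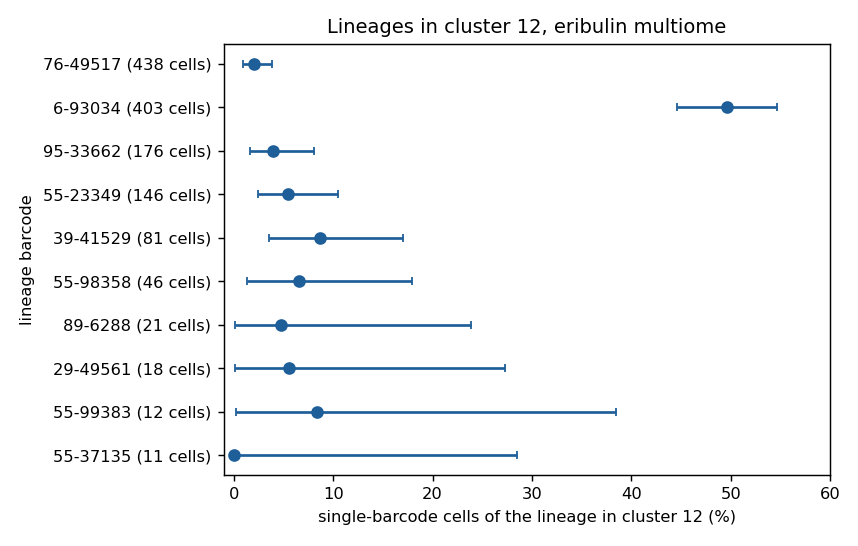
Share of the single-barcode cells of each named lineage that lay in cluster 12 (percent, x axis) in the eribulin multiome library, with the lineages and their cell numbers on the y axis and exact 95% binomial intervals. Lineage 6-93034 stands at 49.6%, and the other 9 lineages at 0% to 8.64%.

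The 39 members of other lineages differed in depth from the 200 members of 6-93034. Their median was 11708 cut sites (quartiles 7164.5 and 20819), against 6032 (3471.75 and 11993) in members of 6-93034 and 5923 in cells of the other lineages outside the cluster. Members called as carrying 2 or more barcodes, which were 17 cells, had a median of 14375 cut sites. Such calls were found in 3.11% (1.82 to 4.93) of the members and in 0.595% (0.434 to 0.795) of the other multiome cells. Among cells with any barcode call they made up 6.64% (3.92 to 10.4) of the members and 3.76% (2.76 to 5.0) of the other cells. These intervals overlapped, and the difference was not tested. The part of undetected pairs of cells in the 39 was not tested.

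Of the multiome members 287 had no barcode call, and they were shallower, with a median of 4861 cut sites against 6981 in the single-barcode members. Among their 30 nearest single-barcode multiome cells on the map 68.5% were of 6-93034, against 20.8% around cells without a call outside the cluster. Around the 39 members called as other lineages the share was 66.1%, so this value did not separate the called lineages within the cluster. The lineage of a cell without a call is not known. For the scATAC members 75% of the nearest single-barcode multiome cells were of 6-93034. This value too reflects their place on the map and does not give their lineage.

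The called scATAC members did not show the same concentration, but they were few. Of the 5, 3 carried 76-49517, with 1104, 2007 and 7147 cut sites. Another carried 95-33662, with 1419 cut sites. A single member carried 6-93034, and it was a very deep cell with 56873 cut sites. Lineage 6-93034 thus had 1 of its 8 called scATAC cells in cluster 12, or 12.5% (0.316 to 52.7), and all other lineages had 4 of 76, or 5.26% (1.45 to 12.9). For 76-49517 the share was 3 of 25, or 12% (2.55 to 31.2), against 2.05% in the multiome library. The interval of this share of 6-93034 overlapped that of the multiome library, 44.6 to 54.6. The share of 6-93034 among single-barcode members was 1 of 5 in scATAC (0.505 to 71.6) and 83.7% (78.4 to 88.1) in the multiome library, and these intervals did not overlap. The difference between protocols was not tested.

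The untreated relatives of the cluster's lineages lay in other clusters, as did nearly all untreated cells. In all, 11 lineages had a single-barcode eribulin cell in cluster 12, and 9 of them were called in 195 untreated multiome cells. Of these 195 cells 0 lay in cluster 12, a count that would permit a share of at most 1.54%. Over all untreated multiome cells the share was 0.0626%, so 0 of 195 does not set these lineages apart. In the 9 clusters that held a larger share of the eribulin libraries lay 2 of the 195. Cluster 2 held 116 of the 195, cluster 3 held 28, cluster 8 held 21 and cluster 6 held 16. These counts were not set against the shares of all untreated multiome cells in the same clusters. Most of the 195 came from lineages with few members of cluster 12. Lineage 39-41529, with 7 multiome members, gave 40, of which 34 lay in cluster 2. Lineage 55-99383, with 1 member, gave 36, of which 30 lay in cluster 2. Lineages 76-49517, 95-33662, 55-23349 and 29-49561 gave 2, 6, 19 and 2 cells, and 6-93034 gave the 12 described next. All other cells of the 195 came from 75-79440 and 29-67687, with 1 member each, and their clusters are not given apart. Lineage 6-93034 itself was called in 12 untreated multiome cells. Of these, 5 lay in cluster 6, 4 in cluster 3 and 1 each in clusters 2, 8 and 9, and none in cluster 12, which with so few cells allows a share of up to 25%. The only untreated member with a called barcode carried 36-66231. That lineage had 3 untreated multiome cells, of which the other 2 lay in cluster 8, and it was called in none of the eribulin cells. Its member of cluster 12 had 0% of its map neighbours in the cluster.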

How the data were processed

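Chromatin accessibility was measured in 4 libraries, 1 per group, and groups were taken from the sample titles. Per the series' design text, the authors made peak counts with cellranger-atac 1.2.0 (scATAC) and cellranger-arc 1.0.0 (multiome) on mm10 and filtered and clustered the cells with Signac 1.1.1. The column name gives a resolution of 0.8. The way libraries were integrated and lineage barcodes called was not stated there. The deposited counts per cell (cut sites in peaks, peaks, gene activity, genes) are not normalized. The deposited nucleosome signal and enrichment at transcription start sites are ratios per cell. The UMAP axes are a deposited score with no unit.

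Members are the cells with cluster number 12, and they were compared with all other cells of the same library. The members and lineages were chosen with earlier results of these data known. Because the cluster was formed on these cells' peaks and cells are not replicates, no test was made. A count of 0 was given the limit of 3 counts. Depth weighting used 10 bins of cut sites. Lineages were named if they had 3 single-barcode cells in cluster 12 or 10 in the eribulin multiome library, or an untreated member. All 13 lineage barcodes were found in the deposited list of 10000000, and 363 of 363 calls that hold a sequence matched it. Lineage shares leave out cells with calls of doublet, multiplet or unmapped. The weighting and the reading of barcode names were tested on simulated data. Values were computed in Python 3.11.15 with scipy 1.17.1, numpy 2.4.6 and pandas 2.3.3, and drawn with matplotlib 3.10.9.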

Additional observations from a re-analysis of the deposited data

Results flagged for a closer look

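Several measures of cluster 12 against the other cells of its library went opposite ways in the 2 eribulin libraries. The difference between protocols was not tested, since each is 1 library. The median of cut sites differed by -3063 in scATAC and by 1725 in the multiome assay. The nucleosome signal differed by -0.032 in scATAC and by 0.00795 in the multiome assay, and the enrichment at transcription start sites by 0.0946 and -0.0238. The gene activity per cut site differed by 0.0543 in scATAC and by -0.0101 in the multiome assay.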

How the results depend on the processing

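Of 158 alternative values 125 stayed within the counting interval of the reported one. Among the main results 49 stayed and 17 moved, of which 4 were for the share of 6-93034 among single-barcode members. Many of the other values rest on the 5 called scATAC members, with intervals too wide to leave easily. No difference between eribulin and untreated shares changed direction, which could hardly happen with 98.5% of the members from eribulin libraries. The share of cluster 12 among eribulin scATAC cells became 3.62% in the range of cut sites shared with the untreated library, and the difference from untreated cells 3.49 points. With at least 5000 cut sites these were 2.56% and 2.45 points in scATAC, and 9.02% and 8.96 points in the multiome assay. With only members that had at least 50% of their map neighbours in the cluster, chosen after seeing the data, the shares were 5.02% (scATAC) and 5.14% (multiome) of eribulin cells and 0.0961% and 0.0209% of untreated cells. With other cells at the depth of the members, 28.1% of scATAC members lay below their median of gene activity per cut site. The share of 6-93034 among single-barcode multiome members was 90.6% among names written with hyphens, 62.1% among names with a sequence, 77.0% with at least 5000 cut sites and 88.2% with the map limit. Outside the cluster the share of 6-93034 was 22.4% among names written with hyphens and 4.78% among names with a sequence. Of its sequence-named cells 70.6% lay in cluster 12. A single barcode was called in 49.7% of multiome members with at least 5000 cut sites. The cause of these shifts was not tested. The other cluster column repeats the same numbers, so it gave no alternative. No paired analysis was possible because each group is 1 library and no result comes from a test. The lineage results in scATAC rest on 5 called members.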
